A study of Homo sapiens with 12 samples.

Results

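The genes described here are 10 pro-apoptotic members of the BCL2 family, out of 58347 genes in the count files. They were chosen by name, as a list of 8 BH3-only genes (BCL2L11, BMF, BBC3, PMAIP1, BAD, BIK, HRK and BID) and 2 effector genes (BAX and BAK1), and all 10 were found once among the gene identifiers of the files. The RNA came from A375, a human melanoma cell line with a BRAF mutation, in 4 groups of 3 samples: cells given the vehicle dimethyl sulfoxide (DMSO), tretinoin, vemurafenib, or both drugs together (the combination). The labels list 5 µM and 8 h for every group, DMSO included, and do not give a separate concentration for each drug of the combination. Vemurafenib is an inhibitor of the mutated BRAF kinase. Tretinoin, all-trans retinoic acid, is a ligand of the retinoic acid receptors. A375 is a single cell line, so the values describe that line, and the drugs were applied in triplicate without a label that ties samples to separate passages or days. The p-values therefore measure the spread between these samples, which may be partly technical.

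The BCL2 family controls the mitochondrial route of cell death. Pro-survival members such as BCL2, BCL2L1 and MCL1 hold the effectors BAX and BAK1 in check, and the BH3-only proteins either neutralize the pro-survival members or engage the effectors directly, after which BAX and BAK1 permeabilize the outer mitochondrial membrane and release cytochrome c. In BRAF-mutant melanoma, signaling through MEK and ERK is known to restrain several BH3-only proteins, both by lowering their mRNA and by marking BIM, the protein encoded by BCL2L11, for breakdown. Counts of mRNA do not show protein level, phosphorylation or cell death.

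Among the 10 genes, 4 rose and 3 fell in vemurafenib relative to DMSO, and 3 did not pass the test. Of all 16740 tested genes, 26.4% rose and 26.3% fell in that comparison. BMF rose the most, 34.1-fold, while HRK rose 2.68-fold, BBC3 1.89-fold and BCL2L11 1.59-fold. PMAIP1 fell by 68.7%, and BID and BAK1 fell as well. In tretinoin alone none of the 10 passed the test, against 5.68% of all tested genes. The combination differed from vemurafenib at 1 of the 10, BCL2L11, which was 1.45-fold higher, and at 4.47% of all tested genes.

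The promoter sequences of the 5 genes with the largest shifts in vemurafenib, picked after their values were seen, are shown because the members differ in direction and because several of them are known targets of transcription factors measured in the same libraries. RefSeq (GRCh38.p14) gave promoter windows for 9 of the 10 genes, all but BIK. Each sequence is printed 5′ to 3′ on the gene's own strand and ends at the RefSeq start site. Where an annotated exon (GENCODE 29) reaches into the window, it ends just before that exon. Capitals mark matches, on either strand, to a FOXO motif (GTAAACA), an AP-1 motif (TGANTCA), an E-box (CACGTG) or the core motif of retinoic acid receptors (AGGTCA). No marked matches overlap. The windows lie at chr2:111120664-111120913 on the plus strand for BCL2L11, chr15:40108893-40109129 on the minus strand for BMF, chr19:47232767-47232917 on the minus strand for BBC3, chr12:116881442-116881691 on the minus strand for HRK and chr18:59899746-59899947 on the plus strand for PMAIP1.
BCL2L11: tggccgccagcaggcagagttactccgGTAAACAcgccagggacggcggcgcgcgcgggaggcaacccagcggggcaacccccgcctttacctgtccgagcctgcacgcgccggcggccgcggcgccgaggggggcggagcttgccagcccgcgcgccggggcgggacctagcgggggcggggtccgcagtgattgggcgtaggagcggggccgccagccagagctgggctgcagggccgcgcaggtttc
BMF: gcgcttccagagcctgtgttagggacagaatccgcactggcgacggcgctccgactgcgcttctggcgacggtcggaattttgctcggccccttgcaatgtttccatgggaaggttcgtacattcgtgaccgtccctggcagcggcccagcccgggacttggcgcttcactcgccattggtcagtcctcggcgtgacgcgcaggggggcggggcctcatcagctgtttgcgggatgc
BBC3: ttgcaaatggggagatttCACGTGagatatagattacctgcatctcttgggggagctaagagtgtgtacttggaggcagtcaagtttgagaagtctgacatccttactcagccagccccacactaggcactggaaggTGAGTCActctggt
HRK: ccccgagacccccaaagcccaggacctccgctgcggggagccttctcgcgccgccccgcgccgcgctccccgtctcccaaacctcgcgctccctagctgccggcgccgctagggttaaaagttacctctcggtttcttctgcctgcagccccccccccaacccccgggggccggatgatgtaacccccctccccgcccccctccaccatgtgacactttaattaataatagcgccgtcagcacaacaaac
PMAIP1: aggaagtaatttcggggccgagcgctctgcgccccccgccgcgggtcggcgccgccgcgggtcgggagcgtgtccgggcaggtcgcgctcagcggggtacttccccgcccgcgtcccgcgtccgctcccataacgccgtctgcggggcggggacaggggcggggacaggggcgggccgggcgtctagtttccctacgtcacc

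Among the 250 bases before the RefSeq start, BCL2L11 held 1 FOXO match, 223 bases upstream, a motif present in 2.98% of 35116 RefSeq promoter windows of the same length. The BCL2L11 window lies inside the gene's GENCODE 29 span, which begins further upstream, at chr2:111119378. BBC3 held an E-box 232 bases upstream and an AP-1 match 113 bases upstream, which occur in 6.34% and 6.57% of windows. BMF (the first of its 2 windows), HRK and PMAIP1 held none of the 4 motifs. The second BMF window held an AGGTCA match, as did 12.1% of windows. GC boxes (GGGCGG) were found in the windows of BCL2L11, BMF, HRK and PMAIP1 and in 42.6% of all windows. These matches describe letters only, and no binding was measured.

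Total counts ran from 13510235 to 21534377 per library, and 16740 genes had enough counts to be tested, all 10 members included. As a check of the labels, all 6 ERK-responsive genes examined fell in vemurafenib (DUSP6, log2 fold change -6.07), and 3 of 5 tested retinoid-responsive genes rose in tretinoin (DHRS3, 2.91). Tretinoin replicate 1 was the shallowest library and stood apart from the other 2 of its group, so values that lean on it are given without it as well. Of the melanocyte markers, SOX10 had 0 counts in all 12 libraries and TYR at most 1, whereas MITF averaged 318 normalized counts and S100B 164 in DMSO. The summed melanocyte list (7 genes) ran from 468 to 557 in DMSO, from 434 to 517 in tretinoin, from 761 to 796 in vemurafenib and from 686 to 713 in the combination. This sum followed mostly MITF, which averaged 585 in vemurafenib and 493 in the combination. In vemurafenib S100B averaged 167, and PMEL averaged 14.3, against 20.9 in DMSO. MLANA went from 3.50 in DMSO to 6.85 in vemurafenib and DCT from 0.407 to 7.09. Of the 3 markers tested, only MITF passed in vemurafenib relative to DMSO. The keratinocyte and epithelial list (4 genes) ran from 227 to 304 in DMSO from 181 to 274 in tretinoin, from 531 to 583 in vemurafenib and from 483 to 650.3 in the combination, mostly KRT14, with EPCAM and CDH1 at 7 and 8 counts or fewer in any library. The endothelial list (3 genes) ran from 95.5 to 118 in DMSO, from 229.6 to 311 in tretinoin, from 43.4 to 57.3 in vemurafenib and from 96.4 to 112 in the combination. Its gene CDH5 averaged 82.4, 243, 2.48 and 56.9 normalized counts in these groups. CDH5 passed as higher in tretinoin relative to DMSO and in the combination relative to vemurafenib. It passed as lower relative to DMSO in vemurafenib (log2 fold change -4.96) and in the combination (-0.53). Relative to tretinoin, the combination was lower too (-2.07). CDH5 also had a called interaction of the drugs (adjusted p 0.00553 in edgeR). The leukocyte list (4 genes) ran from 18.6 to 52.5 in DMSO, from 45.5 to 86.1 in tretinoin, from 57.3 to 70.6 in vemurafenib and from 67.2 to 95.5 in the combination, and the hepatocyte list (2 genes) stayed at or below 5.97 in every library. The part of these shifts in the results below was not tested. Counts are relative to all mRNA in a dish, so fewer cells expressing a gene and less mRNA per cell cannot be told apart.

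In DMSO the effectors were the most abundant members per length of exon. The level of BAX was 1001 ± 57.2 normalized counts per kb (SD, n = 3), at percentile 94.1 of 16705 tested genes with a length, and that of BAK1 was 501 ± 40.3, at percentile 87.9. PMAIP1 (306 ± 15.3) and BID (229.8 ± 7.18) followed, at percentiles 81.2 and 76.3, then BAD (83.1 ± 17.8) and BBC3 (69.2 ± 6.46), at percentiles 56.3 and 52.8. BCL2L11 (34.3 ± 0.754), BIK (16.3 ± 7.03), BMF (9.77 ± 1.89) and HRK (5.03 ± 1.12) were the least abundant, at percentiles 39.98, 28.5, 21.8 and 13.7. Neighbors whose DMSO samples overlap per kb were BAD with BBC3 and BIK with BMF. Except in this paragraph and in the account of the summed BH3-only level, the values below are normalized counts per gene, which compare samples and not genes.

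**Figure D1:**
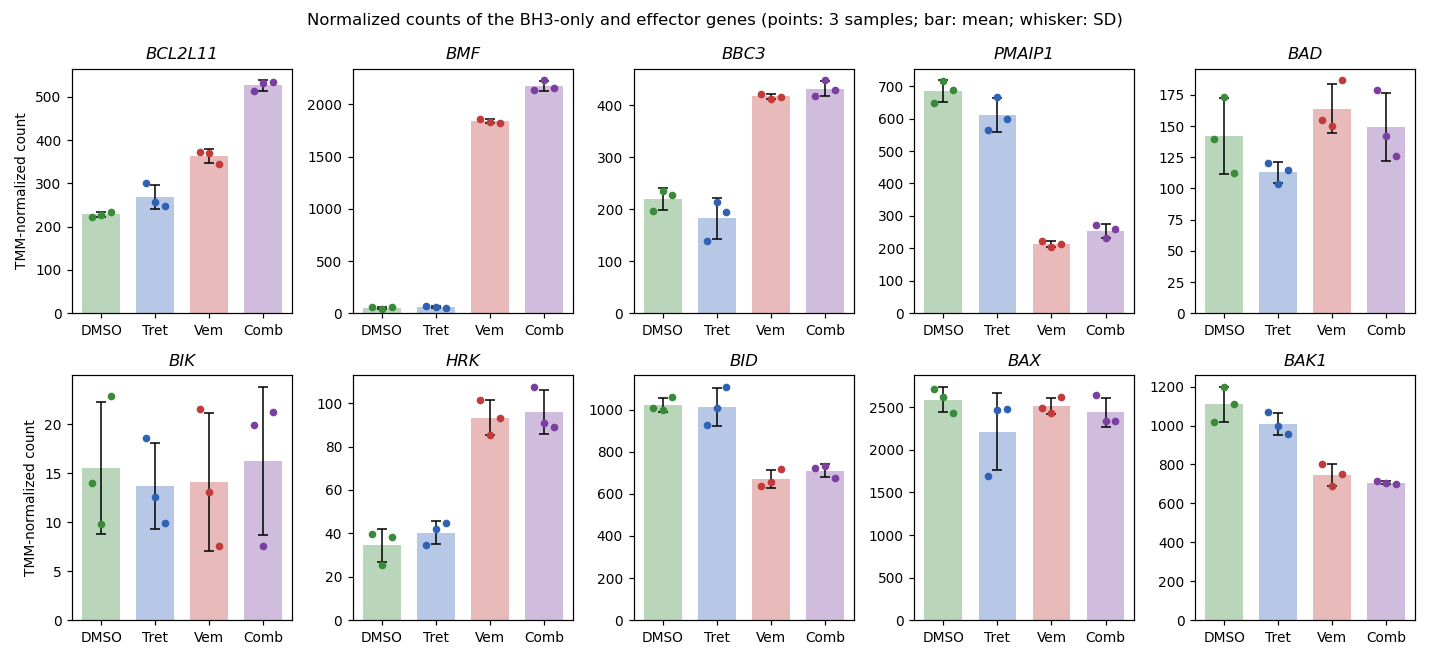
TMM-normalized counts (y axis, linear from 0, a scale of its own in each panel) of the 10 genes in DMSO, tretinoin (Tret), vemurafenib (Vem) and the combination (Comb). Points are the 3 samples, bars the mean and whiskers the SD. BMF lies between 41.5 and 66.2 in the 6 samples without vemurafenib and between 1822 and 2230.5 in the 6 samples with it.

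BMF, whose protein binds pro-survival BCL2 proteins and is held at the cytoskeleton by a dynein light chain, was low without vemurafenib. Its normalized counts were 57.1, 41.5 and 61.0 in DMSO and 66.2, 56.7 and 52.5 in tretinoin. In vemurafenib they were 1860.2, 1832 and 1822, and in the combination 2139.7, 2230.5 and 2158. The 6 samples with vemurafenib lay far above the 6 without, and DMSO and tretinoin overlapped. The log2 fold change was 5.09 ± 0.10 (SE) in vemurafenib relative to DMSO, with an adjusted p of 6.96e-16 (edgeR quasi-likelihood F-test, Benjamini-Hochberg adjustment over all tested genes, threshold 0.05, used for every adjusted p here). By p it ranked 1 among the 16740 tested genes, and by size of rise it ranked 8. In the combination the log2 fold change was 5.34 ± 0.10 (adjusted p 2.99e-16), again rank 1 by p. All 3 combination samples exceeded all 3 vemurafenib samples, by 0.24 ± 0.07 on the log2 scale, but the adjusted p of 0.0658 missed the threshold. The call on that difference depended on the fit: over 14 alternatives the adjusted p ran from 0.00436 to 0.255, and DESeq2 put it at 0.0138. Of the exon bases of BMF (chr15:40087890-40108892, minus strand), 8.46% are shared with BMF-AS1 on the opposite strand, which had 0 counts in every library.

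BCL2L11 encodes BIM, a BH3-only protein that binds all main pro-survival members and can activate BAX and BAK1. Its normalized counts were 224, 228 and 234 in DMSO, 301, 257 and 248 in tretinoin, 374, 371 and 344 in vemurafenib and 513, 532 and 535 in the combination. Ordered by mean, the groups ran DMSO, tretinoin, vemurafenib, combination, and no 2 groups overlapped. The rise in vemurafenib was 0.67 ± 0.09 on the log2 scale (adjusted p 8.39e-06) and that in the combination 1.20 ± 0.09 (adjusted p 4.22e-09). The combination exceeded vemurafenib by 0.54 ± 0.08 (adjusted p 0.000531), and this difference stayed between 0.50 and 0.55 over 14 alternatives. Tretinoin alone gave 0.23 ± 0.09 relative to DMSO, with an unadjusted p of 0.0268 in edgeR and an adjusted p of 0.157. Without tretinoin replicate 1, the highest of its group, that value was 0.14 (adjusted p 0.478). The effect of tretinoin in the presence of vemurafenib was larger than that in its absence by 0.31 ± 0.13 on the log2 scale (the interaction of the drugs), and this difference did not pass (adjusted p 0.266). Without tretinoin replicate 1 the interaction was 0.39 (adjusted p 0.139).

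The exons of BCL2L11 (chr2:111119378-111168447, plus strand) overlap those of the long noncoding RNA gene MIR4435-2HG on the minus strand over 10.9% of their bases. Because the authors' counting ignored strand, reads from the 2 genes in a region annotated to only one of them cannot be told apart. MIR4435-2HG itself averaged 1235 normalized counts in DMSO, 1056 in tretinoin, 430.2 in vemurafenib and 468 in the combination. Its log2 fold change in vemurafenib relative to DMSO was -1.52 ± 0.08 (adjusted p 1.12e-10), opposite in sign to that of BCL2L11, and the combination differed from vemurafenib by 0.12 ± 0.09 (adjusted p 0.602).

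BBC3 encodes PUMA, a BH3-only protein best known as a p53 target. DMSO samples had 197, 236 and 228 normalized counts and tretinoin samples 139, 214 and 195. Vemurafenib samples had 422, 412 and 417, and combination samples 419, 448 and 429.5. DMSO and tretinoin overlapped, as did vemurafenib and the combination, with a gap between the pairs. Its log2 fold change from DMSO was 0.92 ± 0.12 in vemurafenib (adjusted p 3.8e-06) and 0.97 ± 0.12 in the combination (adjusted p 1.78e-06). The combination differed from vemurafenib by 0.05, with a 95% interval from -0.18 to 0.28. Tretinoin alone gave -0.26 ± 0.13 (adjusted p 0.236), and without tretinoin replicate 1, the lowest of the 12 samples, -0.11 (adjusted p 0.661).

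HRK, also called harakiri, is a BH3-only gene known mainly from dying neurons and was the least abundant member per kb in DMSO. It had 39.6, 25.6 and 38.1 normalized counts in DMSO, 34.4, 42.0 and 44.5 in tretinoin, 101, 85.2 and 93.4 in vemurafenib, and 107, 90.7 and 89.2 in the combination. As with BBC3, the groups with vemurafenib overlapped each other and lay above the groups without it. HRK rose by 1.42 ± 0.19 on the log2 scale in vemurafenib (adjusted p 5.45e-06) and by 1.46 ± 0.18 in the combination (adjusted p 3.5e-06). The difference between them was 0.03 (95% interval -0.30 to 0.36).

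PMAIP1 encodes NOXA, which acts mainly against MCL1. It went the other way: 647, 715 and 689 normalized counts in DMSO and 566, 667 and 599.8 in tretinoin, against 222, 205 and 215 in vemurafenib and 271, 231 and 259 in the combination. DMSO and tretinoin overlapped, and every vemurafenib sample lay below every combination sample. The log2 fold change was -1.68 ± 0.09 in vemurafenib (adjusted p 1.04e-10) and -1.43 ± 0.09 in the combination (adjusted p 5.56e-10). The combination stood 0.24 ± 0.10 above vemurafenib (unadjusted p 0.0209 and adjusted p 0.217 in edgeR), and over 14 alternatives the adjusted p of that difference was never below 0.142. Its interaction of the drugs, 0.41 ± 0.13, had the smallest p of the 10 genes (unadjusted p 0.00563 in edgeR) and did not pass after adjustment (adjusted p 0.165). Without tretinoin replicate 1 the interaction was 0.36 (adjusted p 0.2).

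BID, which is cleaved by caspase 8 and so links death receptors to mitochondria, fell less. Its normalized counts were 1007, 999.7 and 1058 in DMSO, 925, 1008 and 1107 in tretinoin, 639, 656 and 719.9 in vemurafenib and 721, 733 and 676 in the combination. No sample with vemurafenib reached the lowest sample without it. BID fell by 0.61 on the log2 scale in vemurafenib (SE 0.08, adjusted p 4.27e-06) and by 0.53 in the combination (SE 0.08, adjusted p 1.88e-05). The combination and vemurafenib differed by 0.08 (95% interval -0.08 to 0.25).

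BAD, a sensitizer whose protein is inactivated by phosphorylation, did not pass the test in vemurafenib or the combination. It had 139.7, 173 and 113 normalized counts in DMSO, 121, 104 and 115 in tretinoin, 155, 150.4 and 187 in vemurafenib and 179, 142 and 126 in the combination. The log2 difference from DMSO was 0.22 in vemurafenib (95% interval -0.12 to 0.55) and 0.07 in the combination (95% interval -0.26 to 0.41). Relative to tretinoin, the combination was higher by 0.39 ± 0.17, with an adjusted p of 0.0581 that ran from 0.0234 to 0.261 over 14 alternatives. Of the exon bases of BAD (chr11:64269830-64284704, minus strand), 23.65% are shared with GPR137 on the plus strand, which rose by 0.53 ± 0.07 in vemurafenib (adjusted p 1.32e-05).

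BIK, a BH3-only protein of the endoplasmic reticulum, was too sparse to compare. Its raw counts ran from 7 to 26 over the 12 libraries, and its groups overlapped throughout. The 95% interval of its log2 difference from DMSO ran from -1.11 to 0.80 in vemurafenib and from -0.91 to 0.95 in the combination. Changes within these intervals, in either direction, could not be told apart from no change.

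Of the effectors, BAK1 fell and BAX did not pass. BAK1 had 1018, 1196 and 1109.9 normalized counts in DMSO, 1068, 999.8 and 956 in tretinoin, 802, 690.3 and 749 in vemurafenib and 715, 704 and 701 in the combination. Samples with vemurafenib lay below those without it. The fall was 0.57 in vemurafenib (log2 fold change -0.57 ± 0.08, adjusted p 8.96e-06) and 0.65 in the combination (-0.65 ± 0.08, adjusted p 1.84e-06). A stretch of 636 bases is shared at 98.3% identity with the pseudogene BAK1P1, so some reads may not have been assigned uniquely.

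BAX did not pass in any of the comparisons made. It had 2722, 2618 and 2429.6 normalized counts in DMSO, 1693, 2472 and 2475 in tretinoin, 2492, 2439 and 2625.5 in vemurafenib and 2641, 2338 and 2341 in the combination. The log2 difference from DMSO was -0.04 in vemurafenib (95% interval -0.27 to 0.19) and -0.09 in the combination (95% interval -0.31 to 0.14). In tretinoin it was -0.22 ± 0.11 (adjusted p 0.227). Replicate 1 was the lowest tretinoin sample, and without it the value was -0.07 (adjusted p 0.661).

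**Figure D2:**
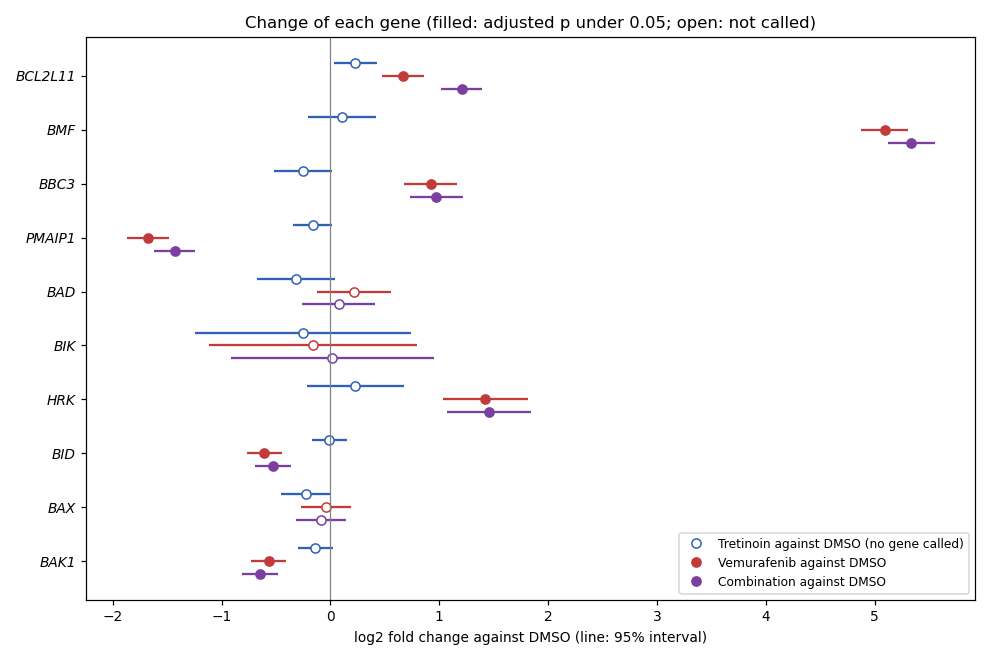
Log2 fold change relative to DMSO (x axis) of each gene in tretinoin, vemurafenib and the combination, with 95% intervals. Filled points passed an adjusted p of 0.05, and open points did not. BMF stands at 5.09 and 5.34, PMAIP1 at -1.68 and -1.43, and no tretinoin point is filled.

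Counted over the list, the shares have to be read against a transcriptome that moved widely. In vemurafenib relative to DMSO, 26.4% of all tested genes rose and 26.3% fell, against 4 and 3 of the 10 members. This even split rests on TMM scaling: with total counts only, 6575 genes were higher and 2628 lower, in place of 4411 and 4400, and BAD was called as well, as higher. The median log2 fold change was 0.09 over the members and 0.02 over all genes. In the combination relative to DMSO, 27.1% of all genes rose and 26.5% fell, and the same 4 members rose (BCL2L11, BMF, BBC3 and HRK) and the same 3 fell (PMAIP1, BID and BAK1). These comparisons share the DMSO samples. With total counts only, 6242 genes were higher and 2916 lower in the combination, in place of 4537 and 4440. In the combination relative to tretinoin, 24.1% rose and 25% fell, with again those 4 and those 3 members (5051 genes higher and 3271 lower with total counts only, in place of 4026 and 4191). Calls in either direction were thus common among all genes, and 7 of 10 members called stood against 52.6% of all genes in vemurafenib relative to DMSO, 53.6% in the combination relative to DMSO and 49.1% in the combination relative to tretinoin.

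Across the transcriptome, the direction of calls under TMM scaling varied with level. Ranked by mean level per kb over all 12 samples, 34.9% of genes in quartile 1, the lowest, rose in vemurafenib and 7.28% fell, while 12.4% of those in quartile 4 rose and 48.1% fell. HRK lies in quartile 1, BCL2L11 and BIK in quartile 2 (33.9% higher, 17.5% lower), BMF, BBC3, PMAIP1, BAD and BID in quartile 3 (24.2% higher, 32.3% lower), and BAX and BAK1 in quartile 4. The 6 samples with vemurafenib enter this ranking, and BMF lies in quartile 3 with them included, whereas in DMSO alone its level stood at percentile 21.8.

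For tretinoin relative to DMSO, 3.48% of all genes rose and 2.2% fell, and 0 of the 10 members passed in edgeR and 0 in DESeq2. With total counts only, 758 genes were higher and 174 lower, in place of 583 and 368. Only BCL2L11 had an unadjusted p below 0.05 in edgeR. By p it ranked 2868 of the 16740 tested genes, so such values were common among all genes. The median log2 fold change of the members was -0.15, against 0.01 over all genes. For the combination relative to vemurafenib, 2.27% rose and 2.2% fell, and 1 member rose. The labels do not say whether both groups had the same vemurafenib concentration, so this contrast may hold more than the addition of tretinoin. In edgeR, 3 members had an unadjusted p below 0.05, BCL2L11, BMF and PMAIP1, and all 3 were higher in the combination. By p they ranked 185, 827 and 1615 of the 16740 tested genes, so many other genes had values as small. The interaction of the drugs was positive at 0.382% and negative at 0.424% of all genes (64 and 71 genes, or 36 and 132 with total counts only). It passed at 0 members in edgeR and 0 in DESeq2, with 2 members, BCL2L11 and PMAIP1, below an unadjusted p of 0.05 in edgeR. By p these 2 ranked 1578 and 571 of the 16740 tested genes.

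The BH3-only genes were also summed per kb to describe the make-up of their mRNA pool. The sum of the 8 genes was 754 ± 26.5 normalized counts per kb in DMSO, 696 ± 34.3 in tretinoin, 894 ± 16.8 in vemurafenib and 1006 ± 19.2 in the combination (SD, n = 3). Samples ran from 724 to 776 in DMSO and from 988 to 1026 in the combination. Without BMF the sums had another order, with 714 to 769 in DMSO, 645 to 711 in tretinoin, 539 to 572 in vemurafenib and 592 to 634 in the combination. BMF made up 0.981% to 1.47% of the pool in DMSO and 36.9% to 38.4% in vemurafenib. PMAIP1 went from between 39.99% and 41.2% in DMSO to between 10.5% and 10.99% in vemurafenib, and BID from between 28.96% and 31.3% to between 15.9% and 17.9%. BCL2L11 made up 4.42% to 4.64% in DMSO, 5.70% to 6.37% in vemurafenib and 7.51% to 8.13% in the combination. Exon length here is the union over all annotated transcripts, so shares depend on which transcripts A375 cells use. Bases shared with other genes count toward length, although fragments over them were assigned to no gene. They are 23.65% of BAD, 10.9% of BCL2L11, 8.46% of BMF, 4.11% of BAK1 and 2.52% of BBC3, which can lower the levels per kb of these genes.

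**Figure D3:**
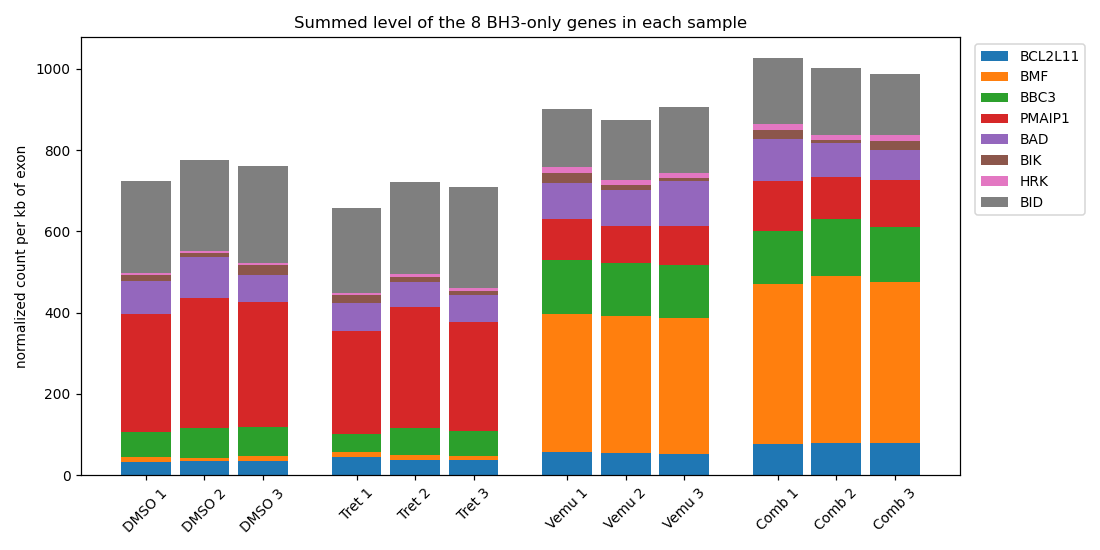
Normalized counts per kb of exon (y axis, from 0) of the 8 BH3-only genes stacked for each of the 12 samples (Tret, tretinoin; Vemu, vemurafenib; Comb, combination). BMF fills 36.9% to 38.4% of the column in vemurafenib and 0.981% to 1.47% in DMSO, and PMAIP1 narrows from 39.99% or more in DMSO to 10.99% or less in vemurafenib.

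The pro-survival genes, which the BH3-only proteins oppose, moved in 1 direction. Of 6 listed, 4 had enough counts to be tested, and all 4 fell in vemurafenib: MCL1 (log2 fold change -1.31 ± 0.07, adjusted p 4.34e-11), BCL2L1 (-0.90 ± 0.08), BCL2 (-0.75 ± 0.12) and BCL2L2 (-0.43 ± 0.08). Their median was -0.82, against 0.02 over all genes, of which 26.3% fell. By level, the share of genes that fell ran from 7.28% in quartile 1, the lowest, to 48.1% in quartile 4, the highest. The quartiles of these 4 pro-survival genes are not given here. In the combination all 4 fell too, BCL2 by 1.13, MCL1 by 1.13, BCL2L1 by 0.89 and BCL2L2 by 0.28 on the log2 scale. None of the 4 passed between the combination and vemurafenib or in tretinoin alone. BCL2A1 had at most 6 counts and BCL2L10 at most 2 in any library.

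The 7 apoptosome and caspase genes tested split into 4 that rose and 3 that fell in vemurafenib. CASP6, an executioner caspase, rose by 0.97 ± 0.14 and CASP9, the initiator caspase of the apoptosome, by 0.73 ± 0.11. CYCS, which encodes cytochrome c, had a log2 fold change of -0.70 ± 0.08. The list of release factors and caspase inhibitors (8 genes tested) had 0 that rose and 3 that fell, BIRC3 (-1.60 ± 0.18), BIRC2 (-0.56 ± 0.07) and BIRC5 (-0.26 ± 0.08), all inhibitor of apoptosis genes. The death receptor list (7 genes) had 4 that rose and 3 that fell. The TRAIL receptor gene TNFRSF10A fell by 1.76 (SE 0.10) and TNFRSF10B by 0.40 (SE 0.09), while CFLAR, which restrains caspase 8, rose by 0.65 ± 0.10 and the adaptor TRADD by 0.51 ± 0.11. None of these 3 lists had a gene that passed between the combination and vemurafenib or between tretinoin and DMSO. Of all tested genes, 4.47% and 5.68% passed in those comparisons. In vemurafenib 26.4% rose and 26.3% fell, so calls in both directions were common outside these lists too.

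Of 12 other BCL2-related genes, 9 were tested and 2 rose in vemurafenib, BCL2L13 (0.48 ± 0.07) and the effector-like BOK (0.48 ± 0.13), while 2 fell, BECN1 (-0.38 ± 0.10) and BCL2L12 (-0.28 ± 0.08). BNIP3 was the 1 gene of this list that passed in tretinoin (-0.28 ± 0.07, adjusted p 0.0331). Genes for proteins that bind BH3-only proteins or effectors or control their turnover (10 tested) had 2 that rose and 5 that fell in vemurafenib. Over all tested genes, 26.4% rose and 26.3% fell. RPS6KA3, which encodes an RSK kinase, fell by 0.75 (SE 0.09), VDAC2, a mitochondrial partner of BAK1, by 0.26 (SE 0.07) and the 14-3-3 gene YWHAZ by 0.25 (SE 0.07). HUWE1, a ubiquitin ligase for MCL1, rose by 0.43 ± 0.09. RPS6KA3 rose in tretinoin (0.35 ± 0.09, adjusted p 0.0254), and RPS6KA1 was the 1 gene that passed between the combination and vemurafenib (-0.32 ± 0.07, adjusted p 0.0152).

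Of 12 genes for transcription factors known to act on BH3-only genes, 6 rose and 3 fell in vemurafenib, against 26.4% and 26.3% of all tested genes. MYC had a log2 fold change of -3.69 ± 0.09, with a mean of 1009 normalized counts in DMSO and 78.1 in vemurafenib, and E2F1 of -1.33 ± 0.07. FOXO3, a known activator of BCL2L11, rose by 1.10 ± 0.09, from 313 to 669.6 normalized counts, and the melanocyte factor MITF by 0.88 ± 0.10. In tretinoin alone 0 of the 12 passed in edgeR. Between the combination and vemurafenib, JUN was higher by 0.56 ± 0.12 (adjusted p 0.00626) and MYC by 0.44 ± 0.11 (adjusted p 0.0267). JUN was also the 1 gene of the 7 pathway lists with a called interaction of the drugs (0.74 ± 0.16, adjusted p 0.0427). Whether any of these factors acted on the 10 genes was not tested.

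**Figure D4:**
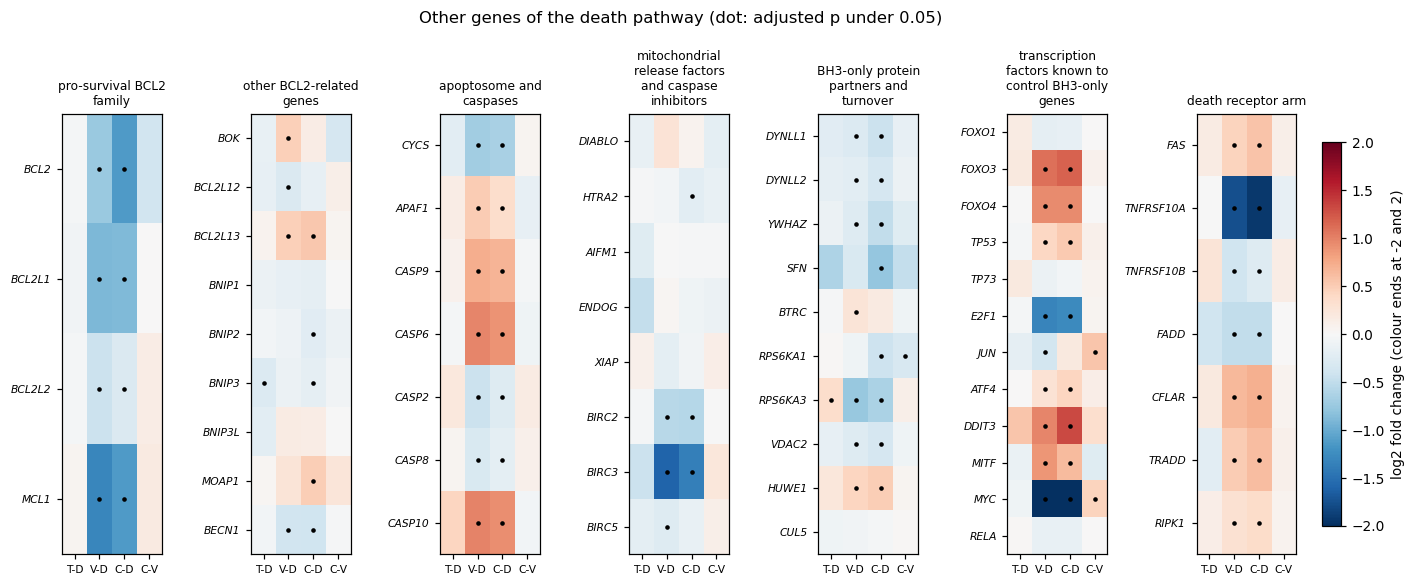
Log2 fold change (color, ending at -2 and 2) of the tested genes in 7 other lists of the death pathway, with T-D, V-D and C-D for tretinoin, vemurafenib and the combination relative to DMSO and C-V for the combination relative to vemurafenib. Dots mark an adjusted p below 0.05. All 4 pro-survival genes carry a dot in V-D and C-D, and 3 genes carry one in C-V (JUN, MYC and RPS6KA1).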

How the data were processed

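Polyadenylated RNA of 12 A375 samples was sequenced. Per the paper's methods and the labels, the authors aligned reads with STAR 2.5.3a to GRCh38.p10, counted fragments per GENCODE 27 gene in union mode with strand ignored, and deposited raw counts without normalization. In union mode a fragment over exons of more than 1 gene is assigned to none.

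Groups came from the labels. Genes were filtered with filterByExpr (16740 of 58347 kept) and scaled by TMM, and all 12 samples entered 1 quasi-likelihood model in edgeR 4.0.16 (R 4.3.3) without a block. P-values were adjusted by Benjamini-Hochberg over all tested genes, with a threshold of 0.05. The interaction is the log2 effect of tretinoin in the presence of vemurafenib minus that in its absence. It takes the vemurafenib concentration as equal in both groups that received it, which the labels do not state. A normalized count is a TMM-adjusted count at the mean effective library size, 18070152, and levels per kb use GENCODE 29 exon lengths. The SE is the log2 fold change divided by the square root of F. Scripts were tested on simulated counts.

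Alternatives were DESeq2 1.42.0 with and without a beta prior, its size factors, total counts only, other filters, only the groups compared, a replicate block and each replicate left out. The members and lists were chosen with earlier results of these data known. Named were all 10 members, at most 4 called genes per other list by smallest p in vemurafenib relative to DMSO and in the combination relative to vemurafenib, drug-response and marker genes, and the 3 genes nearest in pattern to each called member. RARRES3, of the retinoid list, was not matched and is not used here, and 2 genes of the caspase list are not reported here. Depth, 13510235 to 21534377 counts per library, limits precision for sparse genes.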

Additional observations from a re-analysis of the deposited data

How the results depend on the processing

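Of 884 log2 fold changes of the 10 genes under alternatives, 875 kept their side of the threshold, with the direction kept for every call, and 9 passed that had not passed before. These 9 were BMF in the combination relative to vemurafenib with DESeq2 (0.24, adjusted p 0.0138; with a beta prior 0.0134) and with only the groups compared (0.25, adjusted p 0.00436), which made 2 members called instead of 1, and BAD. BAD passed relative to DMSO in vemurafenib with total counts only (0.41, adjusted p 0.0412), against a range up to 0.799 over its alternatives, and in the combination relative to tretinoin under 5 alternatives (total counts only, no filter, at least 10 counts in every sample, without tretinoin replicate 1 and without combination replicate 3). Total counts alone moved the split of calls over all genes, given above, and shifted the median of all genes by 0.19 in vemurafenib and 0.16 in the combination relative to DMSO and by -0.10 for the interaction, and relative to that shift BAD stood at a value like its TMM one (0.22). Leaving out each replicate in turn gave 7 called members in vemurafenib and in the combination relative to DMSO each time, 1 for the combination against vemurafenib and 0 for tretinoin. Counts over all genes moved more. In tretinoin relative to DMSO, 951 genes became 1540 without a filter, 305 with only the groups compared and 379 to 1367 with a replicate left out (379 without DMSO replicate 2). In the combination relative to vemurafenib, 749 became 1269 with only the groups compared and 460 to 586 with a replicate left out, with 482, 460, 460 and 474 without vemurafenib replicates 1 and 2 and combination replicates 2 and 3. For the interaction, 135 became 254 with DESeq2, 252 with a beta prior, 610 without a filter, 75 with the replicate block and 60 to 265 with a replicate left out, the highest without tretinoin replicate 1. Fits with a replicate left out or with only the groups compared held fewer samples, and the other fits did not. The cause of these shifts was not tested.

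The replicate numbers did not pair the samples. Correlations of the deviations of same-numbered samples ran from -0.14 to 0.09 over 18 pairs, and 0 of 12 samples correlated best with their own number. The replicate block left 7 members called in vemurafenib and in the combination relative to DMSO, 1 for the combination against vemurafenib and 0 for tretinoin, and it changed no other call on the 10 genes. Depth limits BIK most, at 7 to 26 counts per library, and then HRK and BMF without vemurafenib.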

Other observations

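Genes that tracked the members across the 12 samples were sought by the root mean square difference of centered log2 levels, 3 for each called member. Nearest to BCL2L11 were DAB2, PIK3R1 and CCNG1 (0.087 to 0.098, against an SD of 0.48 for BCL2L11 itself). All 3 rose in vemurafenib and were again higher in the combination than in vemurafenib, CCNG1, a p53 target, by 0.67 and 0.33, PIK3R1, a regulatory subunit of PI3-kinase, by 0.54 and 0.45, and DAB2, an endocytic adaptor, by 0.82 and 0.46 on the log2 scale (all called in edgeR). Nearest to BMF were the LC3 family gene MAP1LC3C, CSDC2 and SAMD11 at 0.59 to 0.65, against an SD of 2.68 for BMF, with rises of 4.02, 4.51 and 4.25 in vemurafenib.

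JDP2, WASHC3 and CDKN2C lay nearest to BBC3 (0.106 to 0.118), and rose by 0.91, 0.95 and 1.09 in vemurafenib. Near PMAIP1 were S100A16, MAP2K3 and PITPNC1 (0.115 to 0.123), which fell by 1.41, 1.49 and 1.61. For HRK they were DHX58, LINC01003 and LINC00963 (0.141 to 0.152), for BID RPF1, ZFYVE27 and PCNA (0.055 to 0.058), PCNA being the sliding clamp of DNA replication, and for BAK1 UBE2K, CCNJL and RAB35 (0.048 to 0.057). The 12 samples share 4 groups and the genes were selected for nearness, so these values are a description with no test.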
